A study of Mus musculus with 16 samples.

Results

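The locus described here is a stretch of 1.2 Mb of mouse chromosome 17 (GRCm38, to the right of position 55000000) that holds St6gal2 and Pot1b. It was chosen because H3K9me2 was lower there in Smarcad1-KO crypts: all 3 single H3K9me2 peaks that the study lists as altered lie in it. Every H3K9me2 region overlapping the stretch was taken, which gave 31 of the 47065 regions of the genome, and the 69 of 212313 H3K9me3 peaks in the same stretch were added. Since the H3K9me2 difference between KO and WT selected the locus, its H3K9me2 values are given as a description with no test. The rule that chose the locus did not use the H3K9me3 values, and these were tested.

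Dimethylation and trimethylation of histone H3 at lysine 9 are marks of repressed chromatin. H3K9me2 is laid down in broad domains, mainly by the enzymes G9a and GLP, whereas H3K9me3 marks constitutive heterochromatin, retrotransposons and clusters of KRAB zinc finger genes, and is bound by HP1. Smarcad1 is an ATP-dependent chromatin remodeler of the SNF2 family with a known role in keeping these marks on chromatin after DNA replication. St6gal2 encodes a sialyltransferase that adds sialic acid in alpha-2,6 linkage to galactose on glycans. Pot1b encodes one of the mouse proteins that bind the single-stranded overhang of telomeres as part of shelterin, the complex that protects chromosome ends.

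The libraries came from whole crypt isolates of the small intestine of C57BL/6 mice that were either wild type (WT) or carried a Vil-Cre mediated deletion of Smarcad1 (KO). Vil-Cre expresses the recombinase from the Villin promoter, which is active in the intestinal epithelium, so other cells in a crypt isolate keep the gene; the ages of the mice were not given in the sources used here. Chromatin was precipitated with ab1220 for H3K9me2 or ab8898 for H3K9me3, with 3 WT and 3 KO libraries per mark and 1 input per genotype and mark, 16 libraries in all. The input is sonicated chromatin of the same genotype sequenced without antibody. Nothing in these tables measures the deletion of Smarcad1 or the expression of any gene.

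Reads in all regions ranged from 18986927 to 39080740 over the H3K9me2 libraries, and reads in all peaks from 7060246 to 11847756 over the H3K9me3 libraries; the inputs held 8452186 to 12365259. Values are given as reads per 1000000 of those totals (RPM), which removes depth but also any change of the mark over the whole genome. ChIP and input are each scaled to their own total. A ChIP level equal to input thus means enrichment like that of the average region or peak, and not absence of the mark. The H3K9me2 libraries WT1 and KO3 stood apart from the rest and most from each other (chi-square per degree of freedom of their counts 5.92). WT1 differed more from the other WT libraries (3.65 and 3.71) than from KO1 and KO2 (2.57 and 2.41), and KO3 differed by 3.90 from KO1, by 2.52 from KO2 and by 2.53 and 2.42 from WT2 and WT3; this measure also rises with depth, and KO1 and KO3 were the deepest libraries. Without either library the median log2 fold change of H3K9me2 over the locus was -0.182 or -0.178. Peaks had been called by the authors on all libraries of a mark together, so a peak is not evidence for the mark in any single library. Replicates were numbered libraries; the study calls the H3K9me3 ones biological replicates, and the labels do not tie libraries of either mark to single mice.

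St6gal2 lies on the plus strand at chr17:55445382-55514581 and Pot1b on the minus strand at chr17:55651951-55712628. H3K9me2 regions covered 43.3% of the stretch, against 29.8% of chromosome 17, and H3K9me3 peaks covered 9.24% of it, against 16.8%. Neither gene had a region or a peak at its start site. The nearest H3K9me2 region ended 7632 bp before the start of St6gal2, and the nearest one to the start of Pot1b lay 10873 bp away; the nearest H3K9me3 peaks lay 7932 and 23328 bp away. The marks described below therefore lie in the bodies of these genes or outside them, and none lies at these start sites. Region 20, described below, does hold the start site of Vmn2r118.

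The 4 stretches of sequence on which the results turn are shown as the middle 300 bases of each peak, from GRCm38, plus strand, 5′ to 3′. The capitals mark CG dinucleotides, the sites of DNA methylation. The H3K9me2 peak in an intron of St6gal2 is the longest of the 3 single H3K9me2 peaks, and none of its middle is masked as a repeat in the reference.
St6gal2 intron, H3K9me2, chr17:55462276-55462575: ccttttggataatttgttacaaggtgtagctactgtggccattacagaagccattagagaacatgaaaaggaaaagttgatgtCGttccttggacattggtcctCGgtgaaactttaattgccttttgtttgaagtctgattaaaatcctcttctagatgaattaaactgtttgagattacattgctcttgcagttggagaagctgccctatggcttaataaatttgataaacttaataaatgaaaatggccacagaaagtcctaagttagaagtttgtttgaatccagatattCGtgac
The larger of the intergenic H3K9me2 peaks lies between Vmn2r118 and Pot1b, and 98.7% of its middle is masked as repeat.
Intergenic, H3K9me2, chr17:55635151-55635450: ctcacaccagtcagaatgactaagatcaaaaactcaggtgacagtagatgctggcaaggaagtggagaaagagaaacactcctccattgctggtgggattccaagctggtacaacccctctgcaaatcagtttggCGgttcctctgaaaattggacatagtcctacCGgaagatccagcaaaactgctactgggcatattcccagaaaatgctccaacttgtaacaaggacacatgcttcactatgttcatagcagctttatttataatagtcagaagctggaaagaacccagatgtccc
The H3K9me3 peak with the strongest loss in the stretch lies in an intron of Pot1b, and 55.3% of its middle is repeat.
Pot1b intron, H3K9me3 peak 57, chr17:55676026-55676325: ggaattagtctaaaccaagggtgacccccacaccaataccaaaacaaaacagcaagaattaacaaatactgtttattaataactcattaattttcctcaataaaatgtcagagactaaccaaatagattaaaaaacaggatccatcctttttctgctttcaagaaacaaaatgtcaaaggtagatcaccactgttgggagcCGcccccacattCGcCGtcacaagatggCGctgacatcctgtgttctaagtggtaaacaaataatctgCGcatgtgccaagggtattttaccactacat
Its neighbour in the same intron is wholly repeat and rich in CG.
Pot1b intron, H3K9me3 peak 58, chr17:55677226-55677525: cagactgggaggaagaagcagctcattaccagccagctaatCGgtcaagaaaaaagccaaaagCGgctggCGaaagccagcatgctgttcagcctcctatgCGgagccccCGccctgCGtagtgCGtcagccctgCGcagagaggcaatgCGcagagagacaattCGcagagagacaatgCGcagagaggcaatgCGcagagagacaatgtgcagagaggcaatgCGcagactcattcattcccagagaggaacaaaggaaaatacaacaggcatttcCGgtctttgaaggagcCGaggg
Peak 58 has 15 CG in these 300 bases, a number reached by 0.575% of the middles of the 7658 H3K9me3 peaks of chromosome 17, against 5 CG in peak 57 and 3 and 2 in the H3K9me2 peaks. The letters GCAGAGAG, chosen after reading this sequence, occur 6 times in it, counting both strands and overlapping matches, and in 2.14% of those peak middles at least once. The match describes these letters only.

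H3K9me2 was lower in KO over a long stretch that holds St6gal2. Counting from the left end of the 1.2 Mb, 20 regions in a row, regions 3 to 22, had a negative log2 fold change, a span of 577 kb from chr17:55106101 to chr17:55683450 that ends inside Pot1b. Runs of one sign at least as long occurred 7 times in the genome for negative values, this one included, and 8 times for positive values. In all, 24 of the 31 regions had a negative value, against 50.7% of all regions, and the median log2 fold change was -0.18, against -0.002 over all regions. All 3 KO libraries lay below all 3 WT libraries in 14 of the 31 regions, a pattern found in 3.61% of all regions, and above them in none, against 4.5% of all regions. As the locus was chosen on this contrast, nothing is read from these shares.

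Summed over the 31 regions, the WT libraries held 762, 756 and 762 RPM and the KO libraries 670, 677 and 685 RPM. The KO libraries lay close together and all below the WT libraries, by 0.16 on the log2 scale. The inputs held 724 RPM in WT and 716 RPM in KO, a log2 ratio of -0.02, and were thus nearly alike where the ChIP libraries were not.

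**Figure D1:**
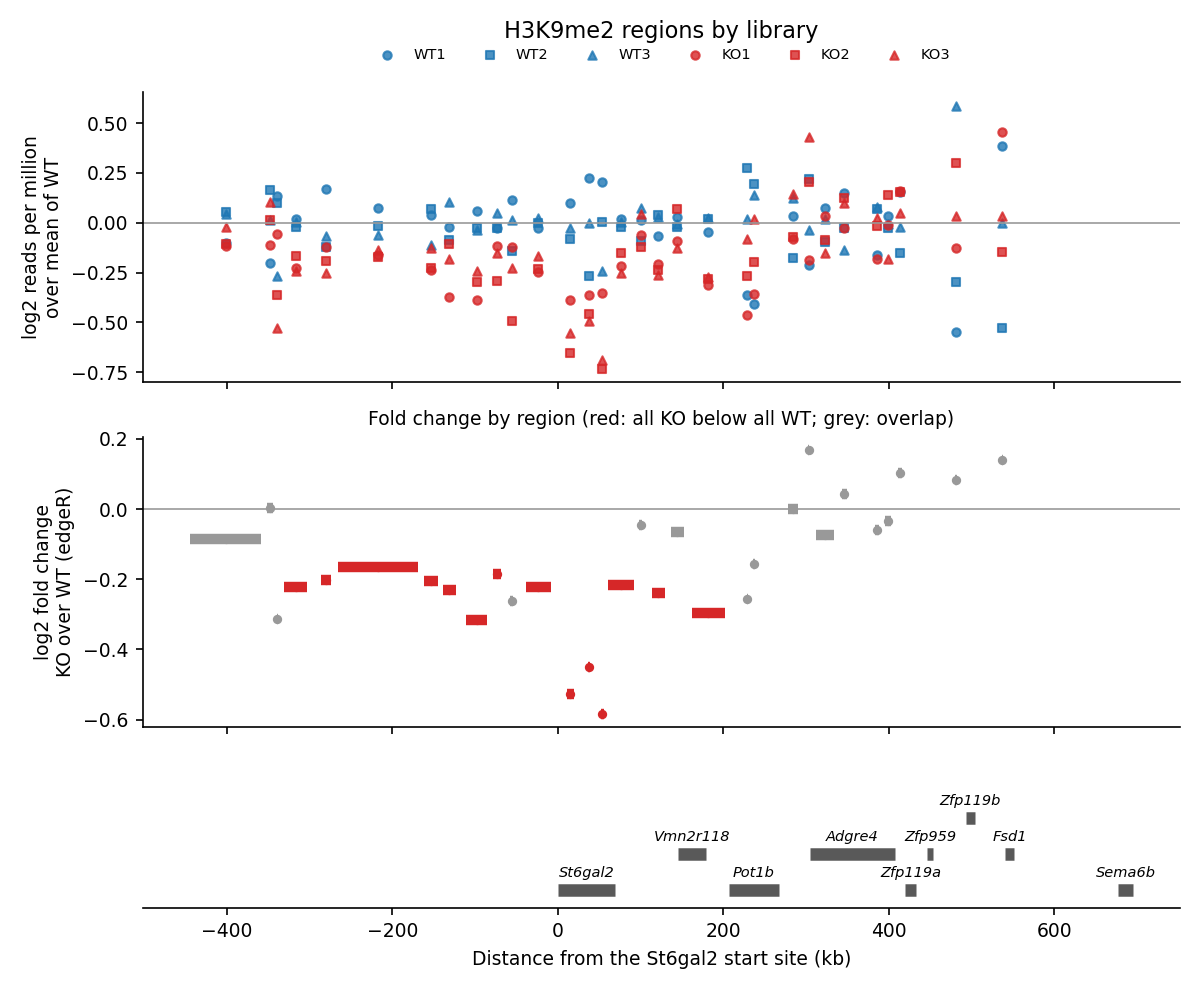
H3K9me2 along the locus, by distance from the St6gal2 start site in kb. The upper plot shows each library as log2 RPM over the WT mean of the region, the middle plot the edgeR log2 fold change with bars as long as the region, and the lower plot the genes; the 14 red regions, in which all KO libraries lay below all WT libraries, reach from left of St6gal2 to just before Pot1b, and the lowest 3 lie in St6gal2.

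The lowest 3 fold changes of the stretch were in regions inside St6gal2, which 4 regions overlap in all. Region 13, at chr17:55456051-55465050 within an intron, held 17.4, 15.3 and 15.9 RPM in WT and 12.4, 10.3 and 11.0 RPM in KO. Region 15, at chr17:55497301-55501200 and reaching over an exon, held 8.80, 7.63 and 6.45 RPM in WT and 5.97, 4.58 and 4.73 RPM in KO. In both, the highest KO library was below the lowest WT library.

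The log2 fold change was -0.53 in region 13 and -0.58 in region 15, the 105th and 62nd lowest of the 47065 regions. Region 14, at chr17:55481701-55484550, was smaller, with 6.00, 4.28 and 5.15 RPM in WT against 4.00, 3.74 and 3.66 RPM in KO (log2 fold change -0.45). WT and KO did not overlap there either, although WT2 and KO1 came close. Region 16, at chr17:55506601-55538100, starts inside the gene and runs 3′ of it; it held 48.1, 46.8 and 47.7 RPM in WT and 41.0, 42.8 and 39.8 RPM in KO, a smaller difference of -0.22 with a narrower spread.

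Per kb of region, the level of H3K9me2 in WT was 1.80 RPM in region 13, 1.80 in region 14, 1.95 in region 15 and 1.51 in region 16. In KO it was 1.25, 1.33, 1.31 and 1.31 RPM per kb. The 3 regions inside the gene thus had the higher RPM per kb in WT, and all 4 had nearly the same in KO. These values are not set against input. The log2 ratio of ChIP over input RPM, with 1 read added, was not alike over the 4 in KO. In the same order it was 0.30, 0.13, 0.17 and 0.02 in WT and -0.39, -0.27, -0.47 and -0.08 in KO.

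Over St6gal2 the inputs differed much less than the ChIP libraries. Summed over the 4 regions, the WT libraries held 80.3, 74.0 and 75.3 RPM and the KO libraries 63.3, 61.4 and 59.3 RPM, while the inputs held 71.1 RPM in WT and 69.6 RPM in KO. The log2 ratio of the KO to the WT input was 0.15 in region 13, -0.03 in region 14, 0.06 in region 15 and -0.10 in region 16. The log2 ratio of ChIP over input, with 1 read added, in region 13 was 0.30 ± 0.093 (SD, n = 3) in WT and -0.39 ± 0.13 in KO. A value under 0 means a lower RPM in ChIP than in input. Over all regions the median of this ratio in WT was 0.00. As ChIP and input are each scaled to reads in these regions, it cannot show how far the regions rise over input. On this scale the values in region 13 go from above the average region in WT to below it in KO.

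The 3 single peaks lie in regions 13 and 20. The peak in the St6gal2 intron, at chr17:55459801-55465050, held 320, 227 and 204 reads in WT and 303, 133 and 262 reads in KO. At the depth of each library this is 11.0, 10.0 and 10.2 RPM in WT (10.4 ± 0.547, SD, n = 3) and 7.76, 7.0 and 6.7 RPM in KO (7.16 ± 0.546), which is 31.3% lower. All KO libraries lay below all WT libraries, and the KO input was not lower than the WT input: 9.79 RPM against 8.36 RPM, a ratio of 1.17 with an exact binomial 95% interval of 0.889 to 1.54. This peak held 64.2% of the WT reads of region 13, and the rest of the region differed by nearly as much (log2 ratio -0.50, against -0.54 in the peak).

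The other 2 single peaks are intergenic, between Vmn2r118, a vomeronasal receptor gene, and Pot1b, and so outside either gene. The peak at chr17:55631701-55632750 held 73, 54 and 47 reads in WT and 55, 18 and 37 reads in KO, or 2.52, 2.38 and 2.35 RPM against 1.41, 0.948 and 0.947 RPM, which is 54.4% lower. The peak at chr17:55633801-55636800 held 186, 135 and 126 reads in WT and 130, 63 and 147 reads in KO, or 6.42, 5.96 and 6.30 RPM against 3.33, 3.32 and 3.76 RPM, which is 44.2% lower. WT and KO were far apart in both.

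At these intergenic peaks the KO input was also lower than the WT input in RPM, though only the interval at the larger peak excludes equal inputs. The KO input was 0.598 of the WT input in RPM at the smaller peak (19 reads in WT and 12 in KO, interval 0.265 to 1.3) and 0.626 at the larger (53 and 35 reads, interval 0.396 to 0.977). Over input, the larger peak had a log2 ratio of 0.44 in WT and 0.27 in KO, and the smaller 0.53 in WT and 0.09 ± 0.31 (SD, n = 3) in KO. The part of the input in the difference was not tested, and intervals from reads cover counting error only. These peaks held 15.1% of the WT reads of region 20, and the rest of that region, which runs from chr17:55607251 to chr17:55647450, differed less (log2 ratio -0.20, against -0.92 in the 2 peaks together).

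**Figure D2:**
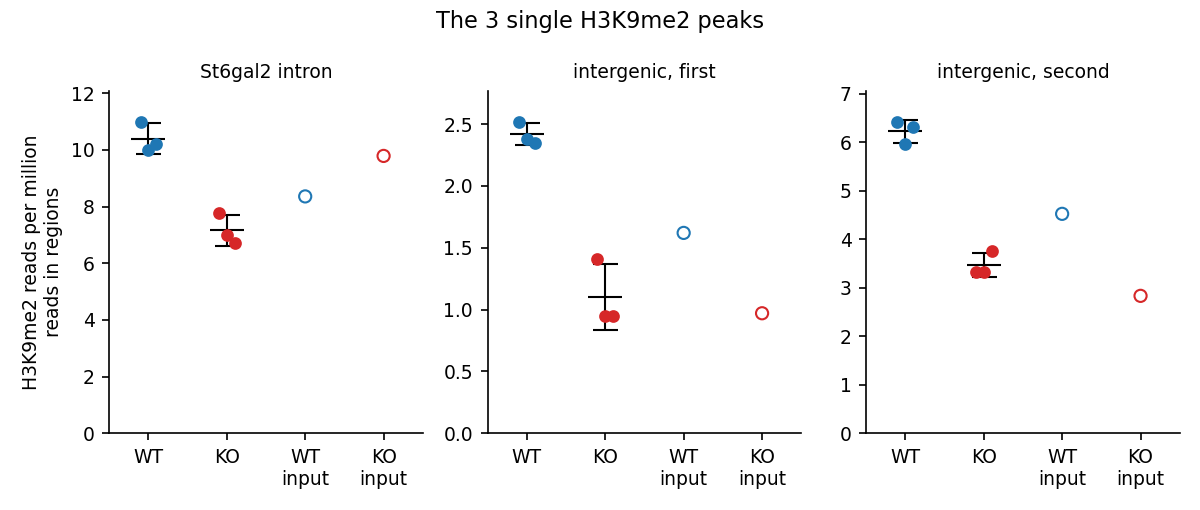
H3K9me2 in the 3 single peaks, in RPM. Filled points are libraries, the line and bar the mean and SD of 3 libraries, and open points the 1 input per genotype; the KO libraries lie below the WT libraries in each, while the KO input lies above the WT input in the St6gal2 intron and below it in the intergenic peaks.

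Region 20 as a whole held 55.8, 58.5 and 58.6 RPM in WT and 46.4, 47.3 and 47.8 RPM in KO (log2 fold change -0.30). Its groups were clearly apart, with a spread within each group far smaller than the difference. The other regions between the genes were mixed: region 18, which reaches over the noncoding RNA gene Gm26547, had a fold change of -0.24 with no overlap of WT and KO, whereas region 17 (-0.04) and region 19, over Vmn2r118 (-0.07), overlapped.

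Within Pot1b, H3K9me2 was sparse and the groups overlapped. Region 21, at chr17:55674301-55675350 in an intron, held 1.73, 2.69 and 2.25 RPM in WT and 1.61, 1.84 and 2.10 RPM in KO. Region 22, at chr17:55680901-55683450, held 3.14, 4.77 and 4.60 RPM in WT and 3.25, 3.63 and 4.22 RPM in KO. WT1 was the lowest WT library in both and lay within or below the range of KO.

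The fold changes in Pot1b were -0.26 and -0.16 and turned on single libraries. Region 21 stood at -0.42 without WT1, -0.09 without WT2 and -0.16 without KO1. Region 22 stood at -0.34 without WT1, -0.27 without KO3 and between -0.08 and -0.04 without WT2, WT3 or KO1. All of these kept the negative sign, and the KO input was higher than the WT input there (6.79 RPM against 5.63 RPM over both regions). To the right of Pot1b the groups overlapped: the 9 regions from there to the end of the stretch, 4 of them overlapping Adgre4, an adhesion G protein-coupled receptor gene, had fold changes from -0.07 to 0.17 with a median of 0.04. Their sums were 87.5, 80.7 and 88.4 RPM in WT and 85.1, 86.6 and 84.4 RPM in KO, which overlap. To the left of St6gal2, 11 of 12 regions were negative, with a median of -0.21, and in 8 of them WT and KO did not overlap; the annotation has no protein-coding gene there, and 5 processed pseudogenes.

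At the edges of the stretch, region 1 stood at -0.09 and the nearest one outside, at chr17:54955651-54990900, at -0.06 (log2 fold changes). At the other end, the last region inside had 0.14 and the nearest outside, at chr17:56519251-56522250, 0.01. The positions that bound the stretch therefore do not cut through the lower regions.

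Over the genome, edgeR called 1 region lower in KO (0.00212% of all) and 0 higher (0.0%) at an adjusted p under 0.05, and DESeq2 called 3 lower and 0 higher; at an unadjusted p under 0.05 edgeR had 1.52% of all regions lower and 1.6% higher. Calls among the 31 regions are not counted, since the same contrast chose them.

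H3K9me3 was lower in KO in Pot1b, in a few intergenic peaks and at the 3′ end of Sema6b, and no H3K9me3 peak was called higher. Of the 69 peaks, 7 had an adjusted p under 0.05 in limma, all lower in KO, against 2.46% of all peaks called lower and 0.252% called higher. At an unadjusted p under 0.05, 19 were lower and 0 higher, against 6.75% and 4.07% of all peaks. On recovered reads edgeR called 10 peaks lower (2.74% of all) and DESeq2 4 (1.47%), and neither called one higher. With limma without trend none of the 7 was called, with adjusted p from 0.0703 to 0.215. All KO libraries lay below all WT libraries in 18 peaks, against 8.21% of all peaks, and above them in 4, against 7.3%. The median difference was -0.23 on the deposited log2 scale, against 0.03 over all peaks, and 52 of the 69 were negative, against 45.3% of all.

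Of the 7 peaks, 3 lie in Pot1b, among the 4 peaks that this gene holds. Peak 57, at chr17:55675501-55676850, held 63, 56 and 74 reads in WT and 12, 35 and 14 reads in KO. These are 5.57, 5.75 and 6.43 RPM against 1.70, 2.95 and 1.39 RPM. KO2 was the highest of the KO libraries and still lay well below every WT library.

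On the log2 scale peak 57 differed by -1.63 (SE 0.23, limma adjusted p = 1.39e-06), a 3.09-fold lower value, the 109th lowest of the 212313 peaks. In WT this peak stood 1.48 ± 0.11 (SD, n = 3) above its input on the log2 scale, higher than 99.0% of peaks. In KO it stood at -0.15 ± 0.53, near the average peak. As ChIP and input are each scaled to reads in peaks, this does not show a fall to input level. The inputs held 18 reads each, a KO to WT ratio of 1.05 with an interval of 0.513 to 2.13.

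Peak 58 is the next one along, at chr17:55677001-55677750, and held 36, 28 and 27 reads in WT and 12, 9 and 16 in KO. The difference was -1.13 (SE 0.30, limma adjusted p = 0.0218), with no overlap. Its call did not hold without WT1, WT2 or KO2, with limma adjusted p from 0.111 to 0.234. This is the CG-rich repeat shown above, and its log2 level over input went from 0.58 (WT) to 0.08 (KO). The inputs held 16 reads in WT and 10 in KO, a ratio of 0.654 with an interval of 0.265 to 1.53, and DESeq2 gave this peak no adjusted p.

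Peak 60 is the broadest in Pot1b, at chr17:55683301-55689300, with 170 exonic bases. It held 200, 179 and 214 reads in WT and 73, 138 and 133 in KO, which is 17.7, 18.4 and 18.6 RPM against 10.3, 11.6 and 13.2 RPM. The groups were well apart, and the difference was -0.64 (SE 0.11, limma adjusted p = 9.89e-05). The inputs held 131 reads in WT and 108 in KO, a ratio of 0.862 with an interval of 0.662 to 1.12.

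The fourth Pot1b peak, peak 59 at chr17:55680301-55680900, held 19, 22 and 24 reads in WT and 7, 9 and 11 in KO. KO was below WT in all libraries and the difference was -1.07, but limma gave an adjusted p = 0.0814; edgeR on the recovered reads gave 0.0425. Over the 4 peaks, Pot1b held 28.1, 29.3 and 29.4 RPM of H3K9me3 in WT and 14.7, 16.1 and 17.2 RPM in KO, with inputs of 20.3 and 17.2 RPM. On this scale the WT libraries lay above the WT input and the KO libraries at or below the KO input. As ChIP and input are each scaled to reads in peaks, this compares Pot1b with the average peak. It does not show a fall to background.

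**Figure D3:**
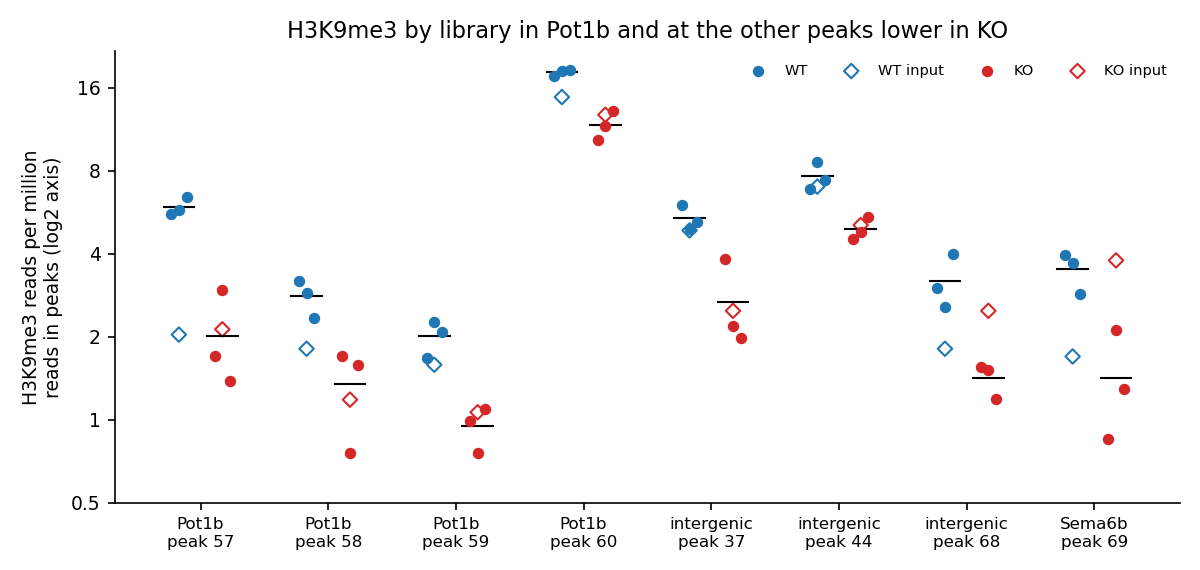
H3K9me3 in the 4 Pot1b peaks and the other 4 peaks of the locus that were lower in KO, in RPM on a log2 axis. Filled points are libraries, lines their means and diamonds the inputs, with ChIP and input each scaled to their own reads in peaks. WT and KO are apart in each peak. At peak 57 the WT libraries lie far above both inputs on this scale while the KO libraries lie around them.

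St6gal2 has a single H3K9me3 peak, peak 52 at chr17:55482001-55482900, within an exon, with 33, 21 and 19 reads in WT and 16, 30 and 25 in KO. The groups overlapped and the difference was 0.15 (SE 0.26, limma adjusted p = 0.915), inside region 14, where H3K9me2 had a fold change of -0.45. In Pot1b, the H3K9me2 regions overlapped between genotypes while the H3K9me3 peaks next to them did not: peak 57 follows directly on region 21. Whether the marks differ in their response was not tested, since they were measured in separate libraries on separate scales.

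Both marks had lower values in KO left of St6gal2 and at the larger intergenic H3K9me2 peak. H3K9me3 peak 56, at chr17:55633951-55634400 inside that H3K9me2 peak, held 19, 15 and 22 reads in WT and 6, 4 and 10 in KO. The difference was -1.45 with no overlap and a limma adjusted p = 0.0509, and edgeR on the recovered reads gave 0.0278. The H3K9me3 input here held 13 reads in WT and 5 in KO, with a log2 level over input of 0.18 (WT) and 0.12 (KO). The KO input was lower than the WT input at this site in both sets of libraries. These input counts are low and come from single libraries, and the part of the input in the difference was not tested.

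Of the other 4 peaks lower in KO, 2 lie left of St6gal2 and 2 far to the right of Pot1b. Peak 37, at chr17:55339201-55341300, held 68, 48 and 60 reads in WT and 27, 26 and 20 in KO, a difference of -1.07 (SE 0.21, limma adjusted p = 0.000811). The input fell with it, from 43 to 21 reads (ratio 0.511, interval 0.288 to 0.88), and over input the WT libraries stood at 0.13 and the KO libraries at 0.03 on the log2 scale. Peak 44, at chr17:55384351-55387500, held 78, 84 and 85 reads in WT and 32, 57 and 55 in KO, a difference of -0.64 (SE 0.16, limma adjusted p = 0.0105). This call did not hold without WT2 (limma adjusted p = 0.121) or without KO1 (limma adjusted p = 0.0519), nor in DESeq2 on recovered reads (adjusted p = 0.175). The inputs held 62 reads in WT and 43 in KO (ratio 0.725), with an interval of 0.48 to 1.09 that includes equal inputs. The log2 level over input went from 0.11 in WT to -0.05 in KO.

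Peak 68, at chr17:55981501-55982400, lies between Shd and Fsd1 and held 34, 25 and 46 reads in WT and 11, 18 and 12 in KO. The difference was -1.15 (SE 0.27, limma adjusted p = 0.0061), and the call did not hold without WT3 (limma adjusted p = 0.138) or in DESeq2 on recovered reads (adjusted p = 0.0737). The inputs held 16 reads in WT and 21 in KO, a ratio of 1.37 with an interval of 0.682 to 2.81. Peak 69, at chr17:56122351-56123250, covers the end of Sema6b, a semaphorin gene on the minus strand, with 166 exonic bases. It held 45, 36 and 33 reads in WT and 6, 25 and 13 in KO, a difference of -1.38 (SE 0.29, limma adjusted p = 0.0013). At peak 69 the input went the other way, with 15 reads in WT and 32 in KO (ratio 2.23, interval 1.17 to 4.43), and the level over input fell from 0.98 in WT to -1.43 in KO.

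The peaks with the most H3K9me3 reads of the locus were the wide ones over the zinc finger genes Zfp119a, Zfp959 and Zfp119b, to the right of Adgre4, where the level was nearly the same in both genotypes. On the deposited log2 scale, the peak over Zfp119a stood at 9.08 in WT and 8.98 in KO, that over Zfp119b at 8.35 and 8.33, and that over Zfp959 at 7.74 and 7.85. The differences were -0.10, -0.02 and 0.12, with limma adjusted p from 0.729 to 0.974. Their SEs were 0.08 to 0.09, far below the size of the differences in Pot1b. In WT they stood 0.90 to 0.97 above input on the log2 scale, less than peak 57 of Pot1b; for Zfp119a and Zfp119b some of the read counts behind that ratio were extrapolated.

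**Figure D4:**
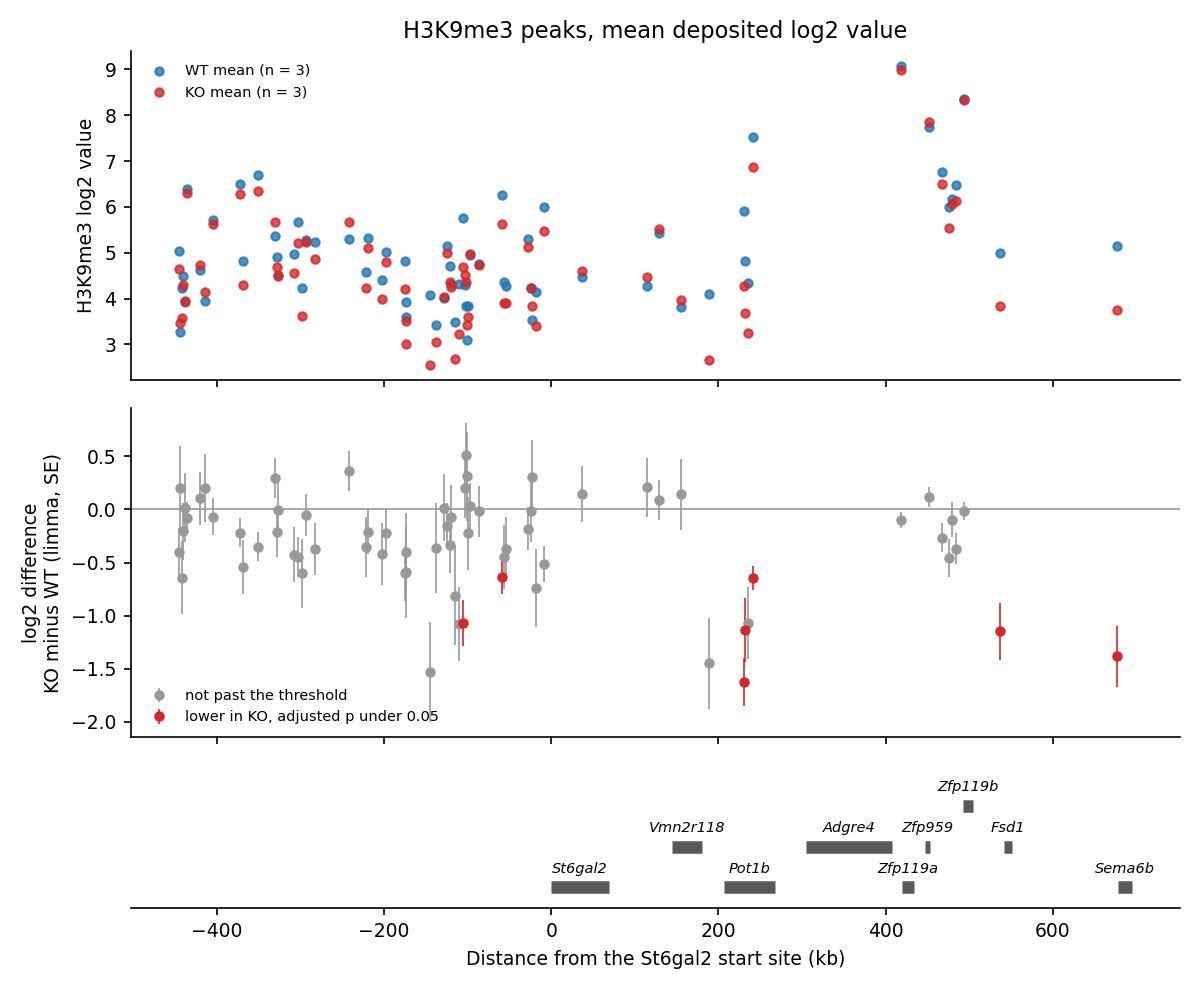
H3K9me3 along the locus, by distance from the St6gal2 start site in kb. The upper plot shows the mean deposited log2 value of each peak in WT and KO, the middle plot the limma difference with its SE, and the lower plot the genes; of the 7 red peaks, which passed the test, 3 lie in Pot1b, while the high peaks over the Zfp genes lie near 0.

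The marks were also summed by block. The sums of H3K9me2 were lower in KO left of St6gal2 (log2 ratio of means -0.16), in St6gal2 (-0.32) and between the genes (-0.22), with no overlap of libraries. The sums of H3K9me3 were lower left of St6gal2 (-0.23), in Pot1b (-0.85) and, by less, right of Pot1b (-0.15), again without overlap, and overlapped in St6gal2 and between the genes. Over the whole locus, H3K9me3 summed to 347, 353 and 342 RPM in WT and 298, 299 and 292 RPM in KO, with inputs of 275 and 265 RPM. Of the 31 H3K9me2 regions, 16 overlap an H3K9me3 peak, so the marks share part of the ground.

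**Figure D5:**
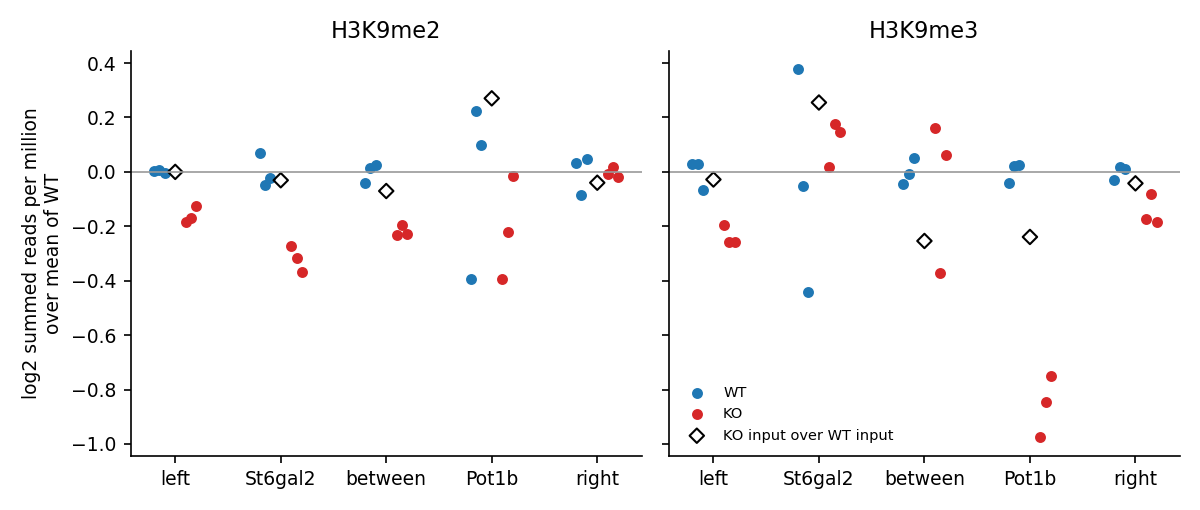
Summed RPM of each mark in 5 blocks of the locus, as log2 over the WT mean. Points are libraries and diamonds the ratio of the KO to the WT input; for H3K9me2 the KO libraries lie below WT in the 3 blocks left of Pot1b and overlap with WT in Pot1b and to the right of it, and for H3K9me3 the lowest KO values are in Pot1b, where the input ratio is -0.24.

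The H3K9me3 peaks of the locus lie in repeats more than those of the chromosome. The median masked share was 75.4% over the 69 peaks and 83.7% over the 7 lower in KO, against 36.7% over the 7658 H3K9me3 peaks of chromosome 17; the locus as a whole is 42.8% masked. The median GC content was alike, at 40.9% and 40%. Reads of mapping quality under 20 had been removed by the authors, so signal in near-identical repeats is uncertain.

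Of the 7 shelterin genes (Terf1, Terf2, Terf2ip, Tinf2, Acd, Pot1a and Pot1b), Pot1b was the single one to hold any H3K9me2 region or H3K9me3 peak, and its paralogue Pot1a held none. Of 9 further genes of telomere maintenance, Terb1 and Majin, which act at meiotic telomeres, held 4 H3K9me3 peaks, too few for a count of calls to be read against the share of all peaks called; the lowest p values belonged to differences of -0.63 in Terb1 (limma adjusted p = 0.203) and -0.52 in Majin (limma adjusted p = 0.422).

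Of 20 sialyltransferase genes, 10 held H3K9me2, in 44 regions with a median log2 fold change of -0.03, the 4 of St6gal2 included. St6gal1, the paralogue of St6gal2 and the main alpha-2,6-sialyltransferase of most tissues, held 1 region, at 0.20. The 4 St6gal2 regions had a median of -0.49. For H3K9me3, 13 of the genes held 131 peaks, 5 of which passed limma as higher in KO and 0 as lower, against 0.252% and 2.46% of all peaks. All 5 lie in St6galnac3, which holds 73 of the 131 peaks and adds sialic acid to N-acetylgalactosamine, and the one of smallest p, at chr3:153341101-153358050, was higher by 0.33 (limma adjusted p = 0.00892).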

How the data were processed

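ChIP-seq reads had been trimmed by the authors with Trim Galore 0.4.4, mapped to GRCm38 with Bowtie2 2.3.2 and imported into SeqMonk with a mapping quality of at least 20 and duplicates removed; MACS peaks were called once per mark on all ChIP libraries against both inputs. The deposited H3K9me2 signal was the mean read count per peak of a region, and mean times number of peaks gave whole reads (at most 0.00114 off), whereas single H3K9me2 peaks were deposited as read counts, with the p-value of the authors' own edgeR test, which was not used. The deposited H3K9me3 values were log2 counts, with the distributions of the 6 ChIP libraries matched by the authors, which hides any shift over all peaks.

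H3K9me2 sums of all regions were fitted with the edgeR 4.0.16 quasi-likelihood test (TMM), and H3K9me3 values of all peaks with limma 3.58.1 (eBayes with trend); genotype was the single term, tests were two-sided, and p-values were Benjamini-Hochberg adjusted over the whole table with a threshold of 0.05. H3K9me3 reads were recovered from the ranks of the distinct values, and rebuilding the deposited values from them came within 0.002 for 99.57% of values in each library; 1256 peaks had an extrapolated count in at least 1 library. Group and replicate of each library were read from its title. Genes are from GENCODE M21. Named genes were St6gal2, Pot1b, the genes under a region or peak of the locus, and lists of shelterin, telomere maintenance and sialyltransferase genes. The locus and the lists were chosen with earlier results of these data known. The 8 columns of standard deviations were not used. The fits were tested on simulated data.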

Additional observations from a re-analysis of the deposited data

How the results depend on the processing

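The median H3K9me2 log2 fold change over the 31 regions kept its direction under DESeq2 size factors, total counts, the replicate block and without any single library. H3K9me2 calls over all regions were 1 in edgeR, 3 with DESeq2 and 17 with the replicate number as a block (15 lower and 2 higher); without 1 library they ranged from 0 to 2, the 2 being without WT1. Calls in the locus are not counted among these, since this contrast chose it. The H3K9me3 calls over all peaks, 5762 (5226 lower, 536 higher), fell to 2392 with DESeq2 on recovered reads (2268 lower, 124 higher) and to 103 with limma without trend, and ranged from 3777 (without WT1) to 5228 without 1 library. In the locus the 7 calls became 4 with DESeq2, of 41 peaks with an adjusted p, 0 with limma without trend, 10 with edgeR on recovered reads and 5 to 9 without 1 library. Peaks 37, 57, 60 and 69 were called in all of these except limma without trend, where peak 57 had an adjusted p = 0.0703. The cause of these differences was not tested. With the replicate number as a block the locus had 8 H3K9me3 calls, of 5752 in all; same-numbered WT and KO libraries correlated at 0.183, 0.016 and 0.078 for H3K9me2 and at -0.015, 0.009 and -0.014 for H3K9me3 in their deviations from the group means, so the numbers were not taken as pairs. Peaks 56 and 59 held 24 reads or fewer in every ChIP library, and 1 input per genotype leaves the inputs without replicate error.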

Other observations

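Over the 6 H3K9me2 libraries, the regions with a gene symbol outside the locus whose log2 level most resembled region 13 in St6gal2 were near Vmn1r-ps110 (Pearson r = 0.990, log2 fold change -0.39), Atg10 (0.989, -0.54) and Gm29669 (0.987, -0.41). Over the 6 H3K9me3 libraries, those most like peak 57 in Pot1b were near Myo1e (r = 0.999, log2 difference -0.72), Gm7173 (0.997, -0.27) and AC122556.1 (0.996, -0.41). The likeness is a description over 3 WT and 3 KO libraries, picked as the highest among all regions or peaks with a symbol, and carries no p.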
